A study of Homo sapiens with 8 samples.

Results

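The genes described here are the liver X receptors and the sterol and phospholipid genes they are known to switch on: the receptor genes NR1H3 (LXRα) and NR1H2 (LXRβ), the cholesterol exporters ABCA1, ABCG1, ABCG5 and ABCG8, the ubiquitin ligase gene MYLIP and the phospholipid acyltransferase gene LPCAT3. They were taken by symbol, with every probe that carries one of these 8 symbols, and 7 of the 8, with 11 probes, were found among the 20044 genes named on the array. The expression of NR1H2 was not analysed here, and only its promoter was searched. The set was chosen by measured values, namely the differences between knockdown and control, with the low ABCG1 signal of Huh7 knockdown cells already known. The members' differences are therefore given as descriptions, without p-values, and how many passed the fit over all genes is stated once, only beside the share of all genes that did.

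Liver X receptors are nuclear receptors that bind oxysterols, and they act on DNA together with a retinoid X receptor. When cell cholesterol is high they raise genes that move cholesterol out of the cell, limit its uptake and adjust membrane phospholipids. In hepatocytes the same receptors also raise SREBF1 and, through it, fatty acid synthesis, so they link cholesterol excess to lipogenesis.

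The arrays came from SK-Hep1, an established line from a liver adenocarcinoma, and Huh7, an established hepatoma line. SMARCB1, a core subunit of SWI/SNF chromatin remodelling complexes, was lowered in both by stably expressed short hairpin RNA under selection with puromycin at 1.25 µg/mL. There were 4 groups with 2 arrays each. SK-Hep1 gave control cells (arrays 1 and 2, with shcon in the titles) and SMARCB1 knockdown cells (11 and 12). Huh7 gave control cells (1 and 2, with GFP in the titles) and SMARCB1 knockdown cells (3 and 4). The controls are thus labelled differently in the lines, so a contrast between the lines also crosses control labels. The labels do not say whether a line is a clone or a pool, whether 11 and 12 are different hairpins (the Huh7 knockdown titles carry an 11 as well), or whether the arrays of a group came from separate cultures, so all errors and p-values cover only how far these arrays lie apart, and that spread may be technical.

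Values are log2 intensities as deposited, and differences are knockdown minus control on that scale, where 1 unit is a 2-fold change. The brighter SMARCB1 probe differed by -1.16 ± 0.104 (SE, n = 2 arrays per group) in SK-Hep1 and by -1.65 ± 0.104 in Huh7. The deposited values had been levelled between the lines: over the 12411 genes tested, the mean of a gene in SK-Hep1 (4 arrays) less its mean in Huh7 (4 arrays) had an SD of 0.029, and 0 genes differed by more than 0.5. For the 11 member probes this gap was at most 0.064. A level in one line can therefore not be set against a level in the other, and whether the scale of a gene was changed within a line is not known. Background was set at 7.003, the 95th percentile of 634 probes for genes that liver cells should lack (beta-defensins, keratin-associated proteins and the olfactory, vomeronasal and taste receptors). All 6 hepatocyte markers examined lay above it, but for the same reason they cannot be assigned to a line. Of the 7 macrophage markers 3 lay above it, and PTPRC, CD163, MSR1 and MARCO did not.

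In SK-Hep1 the members' values split: ABCA1 and MYLIP were higher after knockdown, LPCAT3 was lower, NR1H3 was slightly higher and ABCG1 was within the spread of the arrays. In Huh7 each of these 5 genes was lower after knockdown on its brightest probe. The largest measured difference was that of ABCG1, but only some of its 5 probes showed it. Their Huh7 knockdown values lay under background, so the size of that fall cannot be read. ABCG5 and ABCG8 did not rise above background in any group mean. Of the 5 members above background, 3 passed limma's test at an adjusted p of 0.05 in SK-Hep1 (ABCA1 and MYLIP higher, LPCAT3 lower), where 16.8% of all 12411 genes did. In Huh7 4 of the 5 passed, all lower (ABCG1, MYLIP, NR1H3 and LPCAT3), where 38.9% of all genes did, 19.5% toward lower and 19.4% toward higher values. For the contrast between the lines 4 of the 5 passed (all but LPCAT3), each with the SK-Hep1 difference above that of Huh7, where 31.3% of all genes did, 15.2% in that direction and 16.1% in the other. These counts come from the contrasts that chose the set, and nothing is read from them. MYLIP was no longer among those counted in SK-Hep1 without control replicate 2, and ABCA1 was counted in Huh7 without either control array of SK-Hep1.

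NR1H3 encodes LXRα, the receptor form that is abundant in liver, and in human cells it is known to raise its own transcription. Its probe ILMN_1814022 read 9.63 and 9.74 in SK-Hep1 controls and 9.90 and 9.83 after knockdown. The Huh7 controls read 10.13 and 10.07, and the knockdown arrays 9.52 and 9.63. Both knockdown arrays lay above both controls in SK-Hep1 and below both controls in Huh7, with no overlap in either line. The differences were 0.18 ± 0.0842 (SE, n = 2) in SK-Hep1 and -0.52 ± 0.0842 in Huh7, the latter a 1.44-fold lower signal. Pairing each knockdown array with each control array gave 0.098 to 0.27 in SK-Hep1 and -0.61 to -0.44 in Huh7, so the SK-Hep1 difference was as small as the gap between its 2 control arrays on 1 pairing.

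ABCA1 encodes the transporter that passes cholesterol and phospholipid to lipid-poor apolipoprotein A-I, the first step of HDL formation. Its gene lies on chromosome 9 (chr9:104781006-104928155, minus strand, GRCh38.p14), and its promoter is shown because ABCA1 is a textbook LXR target with a DR4 element near its start. The 250 bases before the RefSeq start (chr9:104928156-104928405, minus strand) and the same stretch of MYLIP (chr6:16128836-16129085, plus strand), whose values went the same ways, read 5′ to 3′ as follows, with a DR4 element in capitals.
ABCA1: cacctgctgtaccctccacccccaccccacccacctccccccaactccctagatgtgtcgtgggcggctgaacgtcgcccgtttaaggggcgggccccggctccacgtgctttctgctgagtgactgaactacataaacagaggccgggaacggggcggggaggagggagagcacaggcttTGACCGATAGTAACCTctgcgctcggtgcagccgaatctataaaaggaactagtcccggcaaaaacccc
MYLIP: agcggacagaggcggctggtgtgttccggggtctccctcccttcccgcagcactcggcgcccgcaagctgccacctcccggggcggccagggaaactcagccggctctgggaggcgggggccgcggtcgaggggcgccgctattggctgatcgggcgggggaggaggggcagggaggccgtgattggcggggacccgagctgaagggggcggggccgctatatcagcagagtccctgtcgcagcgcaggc

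The motif searched was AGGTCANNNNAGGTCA, a direct repeat spaced by 4 bases, on both strands and with up to 2 mismatches in the fixed letters. ABCA1 holds it at -69 to -54 from the start, on the strand opposite to the gene, where it reads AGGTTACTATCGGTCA. RefSeq promoters gave 35116 windows of this length, 2.03% of which hold such a match. Of the 10 windows found for 7 members, NR1H2 included, only that of ABCA1 does. No window was found for ABCG1, so its promoter was not searched. The ABCA1 window also holds an E box, CACGTG, at -147 to -142 (6.34% of all windows) and TATAAA at -31 to -26 (10.7%). GGGCGG occurs 3 times in ABCA1 and 3 times in MYLIP, and 42.6% of all windows hold it. The absence of a match says only that these letters are not in that window.

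The ABCA1 probe ILMN_1766054 read 10.94 and 11.24 in SK-Hep1 controls and 12.10 on both knockdown arrays. The Huh7 controls read 11.73 and 11.76, and both knockdown arrays 11.52. The knockdown arrays were above both controls in SK-Hep1 and below both in Huh7. The difference was 1.01 ± 0.0939 in SK-Hep1, a 2.02-fold higher signal, and ran from 0.86 to 1.16 over the pairs of arrays. In Huh7 it was -0.22 ± 0.0939, a 1.17-fold lower signal. For scale, 95% of all genes differed by less than 0.44 in SK-Hep1 and by less than 0.66 in Huh7.

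MYLIP, also called IDOL, encodes a ubiquitin ligase that sends lipoprotein receptors to lysosomal breakdown and so limits cholesterol uptake. Its probe ILMN_1656111 read 8.91 and 8.78 in SK-Hep1 controls and 9.17 and 9.59 after knockdown. The Huh7 controls read 9.52 and 9.54, and the knockdown arrays 8.77 and 8.72. The groups did not overlap in either line, and the 2 SK-Hep1 knockdown arrays lay further apart than any other pair of this probe. The difference was 0.54 ± 0.109 in SK-Hep1, falling to 0.33 when knockdown replicate 12 was left out and reaching 0.74 when 11 was. In Huh7 it was -0.78 ± 0.109, a 1.72-fold lower signal.

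LPCAT3 encodes the enzyme that puts polyunsaturated fatty acids into membrane phospholipids. Its probe ILMN_1805225 read 10.42 and 10.47 in SK-Hep1 controls and 10.05 and 10.04 after knockdown. The Huh7 controls read 10.37 and 10.46, and both knockdown arrays 10.09. The knockdown arrays lay below both controls in each line. The differences were -0.41 ± 0.0803 in SK-Hep1 and -0.33 ± 0.0803 in Huh7, and subtracting the second from the first left -0.082 ± 0.114, smaller than its SE. LPCAT3 was thus the member whose values went the same way by a similar amount in both lines.

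**Figure D1:**
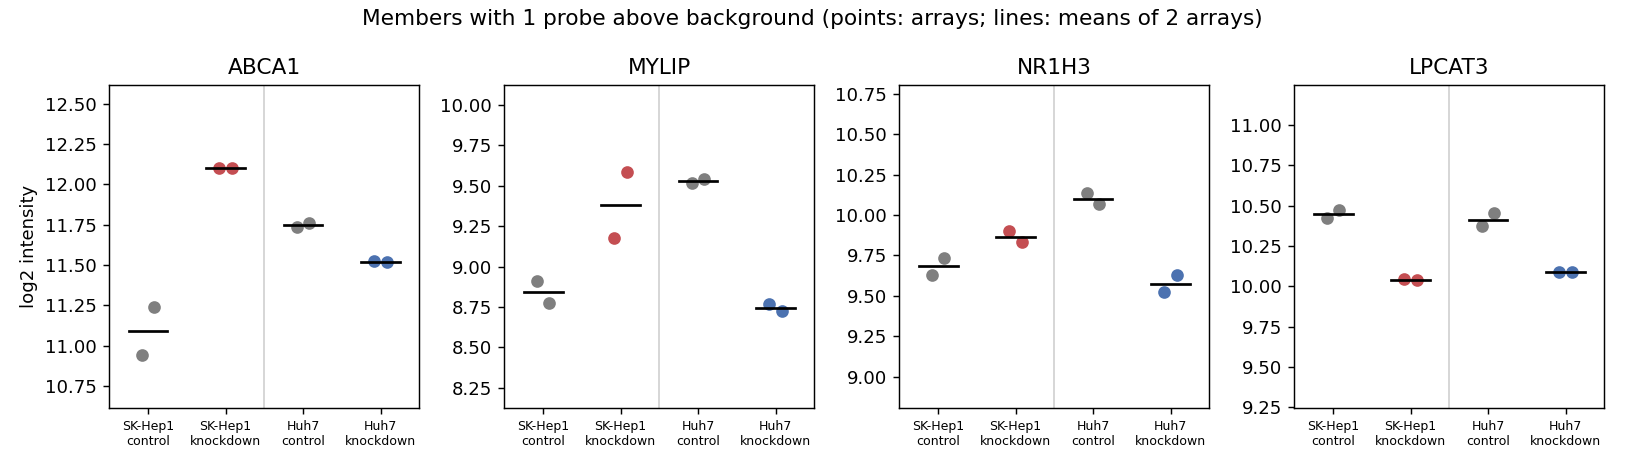
Log2 intensity (vertical axis) of the ABCA1, MYLIP, NR1H3 and LPCAT3 probes on each array, by group, with points for arrays and lines for means of 2 arrays; each panel spans 2 log2 units. ABCA1, MYLIP and NR1H3 lie higher after knockdown in SK-Hep1 and lower in Huh7, and LPCAT3 lies lower in both.

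ABCA1, MYLIP and NR1H3 were higher after knockdown in SK-Hep1 and lower in Huh7. The share of all genes that did so is not given here, so nothing is read from how many members did. The difference in SK-Hep1 less that in Huh7 was 1.24 ± 0.133 for ABCA1, 1.32 ± 0.155 for MYLIP and 0.71 ± 0.119 for NR1H3. CD14, a macrophage marker that was also bright here, moved the same ways, rising by 1.04 ± 0.119 in SK-Hep1 (limma adjusted p = 0.000398) and falling in Huh7 (-1.07 ± 0.119, adjusted p = 0.000103). CD68 rose by 0.61 ± 0.0691 in SK-Hep1 (adjusted p = 0.000378) and was at -0.15 ± 0.0691 in Huh7 (adjusted p = 0.12). LYZ differed less, by 0.12 in SK-Hep1 and -0.12 in Huh7. The summed linear signal of the 3 macrophage markers above background (CD68, CD14 and LYZ) was 2390 to 2529 in SK-Hep1 controls and 3737 to 3878 after knockdown, and 3386 to 3416 in Huh7 controls and 2610 to 2809 after knockdown. PTPRC, a marker of leukocytes, was not above background. The summed signal of the 6 hepatocyte markers was 9378 to 9581 in SK-Hep1 controls and 10428 to 10878 after knockdown, and 11314 to 11329 in Huh7 controls and 11708 to 11835 after knockdown. Among them SERPINA1 rose in SK-Hep1 (0.58 ± 0.0815, limma adjusted p = 0.00138) and APOA1 rose in Huh7. The hepatocyte markers did not rise as a set. ALB, TTR, TF and FGB lay between -0.076 and 0.0023 in SK-Hep1 and between -0.22 and 0.0094 in Huh7. Of the 5 endothelial markers only PECAM1 lay above background, and it fell in Huh7 (-0.32 ± 0.0653, adjusted p = 0.00355). The part of these markers in the members' values was not tested.

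**Figure D2:**
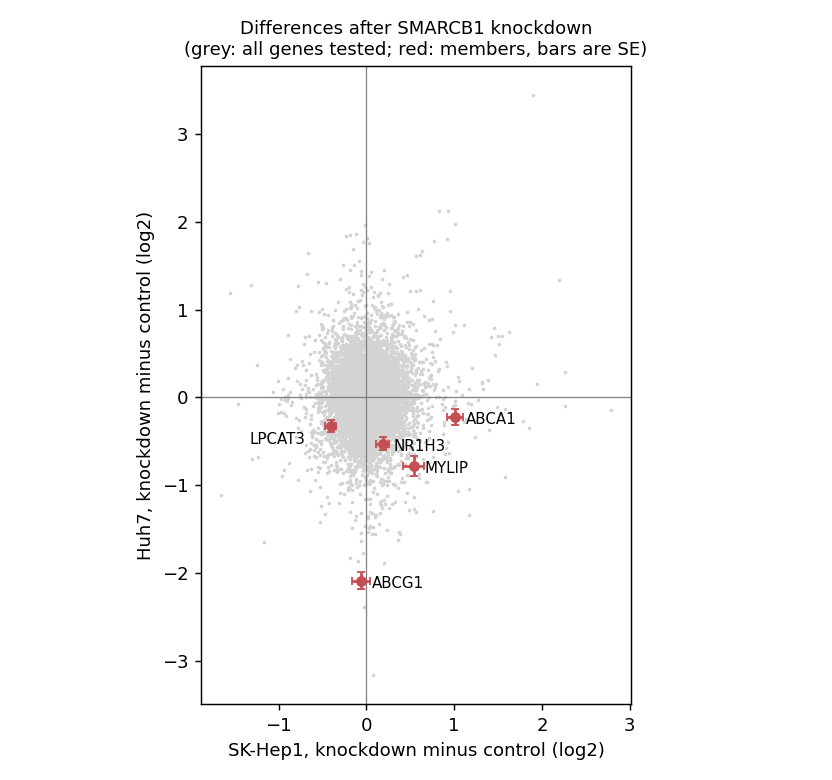
Knockdown minus control in SK-Hep1 (horizontal axis, log2) against the same in Huh7 (vertical axis, log2) for the 12411 genes tested (grey) and the 5 members above background (red, bars are SE). ABCA1, MYLIP and NR1H3 lie right of 0 and below 0, LPCAT3 lies left of 0 and below 0, and ABCG1 lies near 0 in SK-Hep1 and at -2.09 in Huh7.

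ABCG1 encodes a transporter that moves cholesterol toward HDL particles, and it was read by 5 probes that disagreed. Its gene lies on chromosome 21 (chr21:42199689-42297244, GRCh38.p14). The brightest probe, ILMN_1794782, read 7.51 and 7.58 in SK-Hep1 controls and 7.62 and 7.34 after knockdown. The Huh7 controls read 8.61 and 8.60, and the knockdown arrays 6.61 and 6.42. The SK-Hep1 groups overlapped, and in Huh7 both knockdown arrays lay far below both controls. The differences were -0.062 ± 0.0989 in SK-Hep1 and -2.09 ± 0.0989 in Huh7.

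The probe ILMN_2329927 is annotated to the same transcript, NM_016818. It read 6.98 and 7.08 in SK-Hep1 controls and 7.05 and 7.01 after knockdown. The Huh7 controls read 7.95 and 7.99, and the knockdown arrays 6.18 and 6.15. It too overlapped in SK-Hep1 and was far lower on both Huh7 knockdown arrays, with differences of 0.00073 ± 0.0812 and -1.80 ± 0.0812.

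The other 3 ABCG1 probes are annotated to other transcripts and differed little in either line. ILMN_1658176 (NM_207629) read 7.40 and 7.28 in Huh7 controls and 7.34 and 7.25 after knockdown. ILMN_2262362 (NM_207627) read 7.010 and 6.852 in Huh7 controls and 7.008 and 6.998 after knockdown. ILMN_1695968 (NM_207174) read 6.90 and 6.74 in Huh7 controls and 7.02 and 6.87 after knockdown. All 3 overlapped between groups, with Huh7 differences of -0.044 ± 0.0987, 0.072 ± 0.0877 and 0.12 ± 0.114 in that order. In SK-Hep1 the differences of these probes were -0.095 ± 0.0987, 0.086 ± 0.0877 and -0.092 ± 0.114. The last 2 probes did not lie above background over the 8 arrays. All 4 annotated transcripts are still listed for ABCG1 in RefSeq, and the bases each probe reads were not examined here.

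The low ABCG1 values in Huh7 lie under the background limit, so the size of the fall cannot be read from them. With the limit of 7.003 in place of the dim group, the control signal was 3.03-fold higher on ILMN_1794782 and 1.95-fold higher on ILMN_2329927. The measured values were 4.25-fold and 3.49-fold. Such folds, here and for other genes, are lower bounds only if the levelling left the values comparable with the limit. Whether it did is not known. The Huh7 knockdown mean of ILMN_2329927, 6.17, was above only 0.158% of the 634 background probes, whereas its SK-Hep1 means of 7.03 were above 96.1% of them. A value so far under the typical background probe (median 6.64) is not a level of ABCG1. The levelling of the 2 lines was done before deposition, and its part in these low values was not tested.

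**Figure D3:**
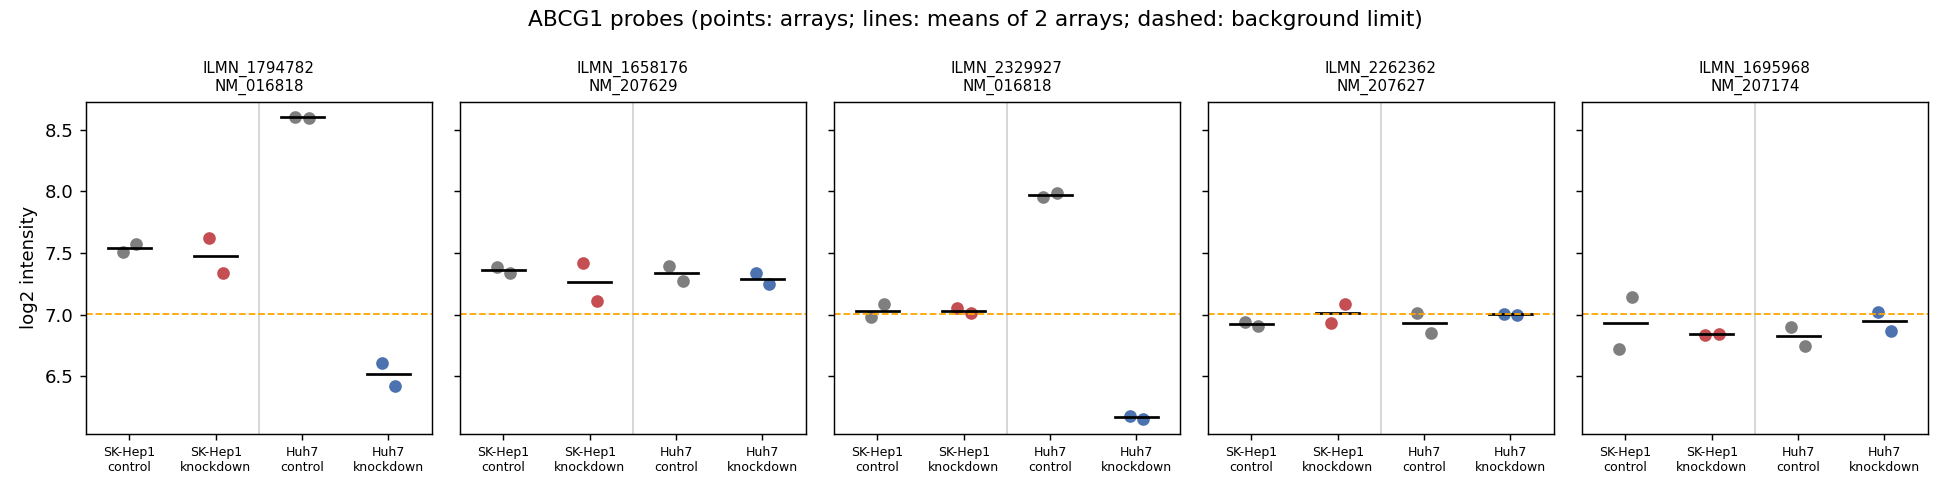
Log2 intensity (vertical axis) of the 5 ABCG1 probes on each array, by group, with the annotated transcript above each panel; points are arrays, lines are means of 2 arrays and the dashed line is the background limit of 7.003. The 2 probes of NM_016818 drop below the limit on both Huh7 knockdown arrays, and the other 3 probes overlap between the groups.

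The 5 genes whose values over the 8 arrays were most like those of ILMN_1794782, by Pearson correlation, were THBS4 (0.997), DYDC2 (0.996), PLA2G7 (0.994), IRX3 (0.994) and KNG1 (0.992). THBS4 is a thrombospondin, PLA2G7 a lipoprotein-associated phospholipase, IRX3 a homeobox factor and KNG1 the kininogen precursor. Their Huh7 differences were -2.39, -0.65, -1.86, -1.30 and -1.49, and their SK-Hep1 differences lay between -0.098 and 0.042. With the line means levelled, the correlation rests on the Huh7 difference of each gene, and the 8 points share 4 groups. The 2 PLA2G7 values after knockdown in Huh7 were under the background limit as well. With the limit in their place the PLA2G7 control signal was 3.18-fold higher.

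ABCG5 and ABCG8 form a heterodimer that secretes sterols into bile, and they lie head to head on chromosome 2. The ABCG5 probe ILMN_1716592 read between 6.84 and 6.90 on all 8 arrays. The ABCG8 probe ILMN_1680309 read between 6.64 and 6.89. Both were below the background limit on every array, so no change of either can be read: the differences were 0.013 and 0.034 for ABCG5 and 0.060 and 0.15 for ABCG8 in SK-Hep1 and Huh7.

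Other genes that LXR is known to raise in human or mouse cells moved largely downward in Huh7. Of the 20 listed, 14 were bright enough to be tested, and 12 of the 14 fell in Huh7 with 0 rising (limma, adjusted p over 12411 genes; 12 and 0 also at an unadjusted p of 0.05). Their median difference was -0.62, against 0.00061 over all genes, of which 19.5% fell. In SK-Hep1 6 of the 14 fell and 1 rose, with a median of -0.099 against -0.0095 over all genes, of which 8.54% fell and 8.31% rose. With 1 array left out, 10 to 12 fell in Huh7 and 6 fell in SK-Hep1 each time. The Huh7 calls of APOC2 and ACACA were the ones lost, each without any 1 Huh7 array (adjusted p = 0.0537 to 0.202), and that of APOC2 also without either SK-Hep1 control (0.0541). Several of these genes, SCD, SREBF1 and FASN among them, were known to be lower before the list was written.

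SREBF1, SCD and TMEM135 fell in both lines. SREBF1, the regulator of fatty acid synthesis, read 10.60 and 10.84 in SK-Hep1 controls, 10.16 and 9.92 after knockdown, 10.84 and 10.74 in Huh7 controls and 9.95 and 9.98 after knockdown. It fell by 0.67 ± 0.1 in SK-Hep1 (limma adjusted p = 0.00181) and by 0.83 ± 0.1 in Huh7 (adjusted p = 0.000173), and the difference between the lines did not pass the threshold (adjusted p = 0.461). SCD, which desaturates stearate, fell by 1.15 ± 0.0811 in SK-Hep1 (adjusted p = 2.1e-05) and by 0.44 ± 0.0811 in Huh7 (adjusted p = 0.00211). TMEM135, a peroxisomal and mitochondrial membrane protein gene that LXR raises in human liver cells, fell by 0.52 ± 0.0655 in SK-Hep1 (adjusted p = 0.00066) and by 0.80 ± 0.0655 in Huh7 (adjusted p = 1.37e-05).

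PLTP and APOE fell in Huh7. PLTP, which transfers phospholipids between lipoproteins, read 9.43 and 9.35 in Huh7 controls and 8.25 and 8.26 after knockdown. It fell by 1.13 ± 0.0803 in Huh7 (limma adjusted p = 5.58e-06) and by 0.44 ± 0.0803 in SK-Hep1 (adjusted p = 0.00492), though its other probe showed -0.30 and -0.14. APOE, a ligand of lipoprotein receptors, was the only gene of the list that rose in SK-Hep1 and is named for that after its values were seen. It was 0.47 ± 0.109 higher in SK-Hep1 (limma adjusted p = 0.0168), whereas Huh7 gave -0.65 ± 0.109 (adjusted p = 0.00119), the same split as ABCA1 and MYLIP. Its SK-Hep1 call was lost without control replicate 2 (0.39, adjusted p = 0.107) and without knockdown replicate 11 (0.30, adjusted p = 0.0557).

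**Figure D4:**
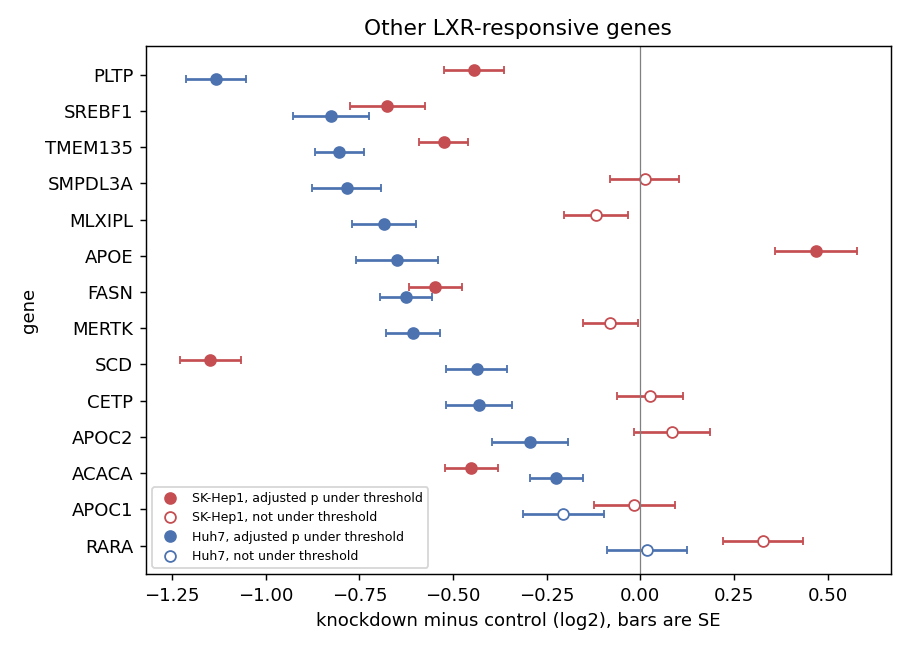
Knockdown minus control (horizontal axis, log2, bars are SE) of the 14 other LXR-responsive genes tested, in SK-Hep1 (red) and Huh7 (blue); filled points passed an adjusted p of 0.05. In Huh7 12 filled points lie left of 0; in SK-Hep1 6 lie left of 0 and APOE lies right of it.

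Among LXR partners and coregulators, 1 of 15 tested rose and 2 fell in SK-Hep1, and 2 rose and 4 fell in Huh7, with medians of -0.087 and 0.039, where 8.31% and 8.54% of all genes rose and fell in SK-Hep1 and 19.4% and 19.5% in Huh7. With 1 array left out the counts were 0 to 1 higher and 0 to 2 lower in SK-Hep1 (0 and 0 without control replicate 2), and 1 to 3 higher and 2 to 4 lower in Huh7 (1 and 2 without Huh7 control replicate 2). RXRA, the DNA-binding partner of LXR, read 10.34 and 10.48 in SK-Hep1 controls, 10.91 and 10.61 after knockdown, 10.91 and 10.90 in Huh7 controls and 10.40 and 10.42 after knockdown. It fell in Huh7 (-0.49 ± 0.0957, limma adjusted p = 0.00266) and was 0.35 ± 0.0957 in SK-Hep1 (adjusted p = 0.032). The SK-Hep1 call did not hold with any array left out other than SK-Hep1 knockdown replicate 12 (adjusted p = 0.0515 to 0.182), and the difference was 0.20 without knockdown replicate 11. PPARGC1A, a coactivator of oxidative metabolism, fell in Huh7 (-0.95 ± 0.0687, adjusted p = 6.02e-06) and was at -0.070 in SK-Hep1 (adjusted p = 0.519).

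CREBBP, an acetyltransferase coactivator, went the other way, with -0.29 ± 0.0673 in SK-Hep1 (limma adjusted p = 0.0162) and 0.42 ± 0.0673 in Huh7 (adjusted p = 0.000893). Its other probe showed -0.15 and 0.082, and the SK-Hep1 call was lost without control replicate 2 (adjusted p = 0.0813). TBL1X, a corepressor subunit, fell in Huh7 (-0.33 ± 0.0734, adjusted p = 0.00545), and not without Huh7 control replicate 2 (adjusted p = 0.0564).

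Genes of oxysterol synthesis and sterol movement inside the cell counted 2 higher and 0 lower of 14 in SK-Hep1 (4 and 0 at an unadjusted p of 0.05), and 1 higher and 6 lower in Huh7, with medians of 0.026 and -0.25. Of all genes 8.31% rose and 8.54% fell in SK-Hep1, and 19.4% rose and 19.5% fell in Huh7. The number of these 14 higher in SK-Hep1 was 0 to 2 with 1 array left out, and 0 without knockdown replicate 12. The number lower in Huh7 was 4 to 8 with 1 array left out, lowest without Huh7 knockdown replicate 3. NPC1, which exports cholesterol from lysosomes, read 11.42 and 11.40 in Huh7 controls and 10.56 and 10.50 after knockdown, and fell by 0.88 ± 0.144 (limma adjusted p = 0.00101). In SK-Hep1 it read 10.74 and 10.79 in controls and 10.95 and 11.53 after knockdown, a difference of 0.47 ± 0.144 (adjusted p = 0.0482). That call held only with all arrays or without knockdown replicate 11, and the difference was 0.18 without knockdown replicate 12 (adjusted p = 0.135); without any 1 other array the adjusted p was 0.0666 to 0.189.

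CYP39A1, an oxysterol hydroxylase, fell in Huh7 (-0.72 ± 0.0935, limma adjusted p = 0.000272), where its knockdown arrays were under the background limit. With the limit in their place the control signal was 1.52-fold higher. GRAMD1A, a sterol carrier at membrane contacts, fell in Huh7 too (-0.43 ± 0.0849, adjusted p = 0.00312). NCEH1, a cholesteryl ester hydrolase, rose in Huh7 (0.50 ± 0.0858, adjusted p = 0.00138) and was 0.36 ± 0.0858 in SK-Hep1 (adjusted p = 0.0193). The NCEH1 call in SK-Hep1 was lost without control replicate 2 (0.25, adjusted p = 0.116) and without knockdown replicate 12 (0.29, adjusted p = 0.0765).

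Of the HDL proteins and their remodelling factors, 0 of 7 passed limma's threshold in SK-Hep1 (2 higher and 0 lower at an unadjusted p of 0.05), and 1 rose and 3 fell in Huh7. The share of all genes that passed was 16.8% in SK-Hep1, and in Huh7 19.4% rose and 19.5% fell. APOA1, the apolipoprotein that accepts lipid from ABCA1, read 9.18 and 9.14 in Huh7 controls and 10.08 and 10.21 after knockdown, a rise of 0.99 ± 0.0782 (adjusted p = 1.15e-05). APOA2, the second protein of HDL, read 11.29 and 11.30 in Huh7 controls and 10.25 and 10.37 after knockdown, and fell by 0.98 ± 0.0807 (adjusted p = 1.43e-05). APOA1 and APOA2 thus went opposite ways in Huh7. APOM, an HDL carrier of sphingosine 1-phosphate, fell (-0.42 ± 0.0731, adjusted p = 0.00141), as did PCTP, a phosphatidylcholine carrier (-0.26 ± 0.0764, adjusted p = 0.0227). The PCTP call was lost on leaving out Huh7 control array 1 (adjusted p = 0.15), control array 2 (0.0607) or knockdown array 4 (0.156).

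Of the lipoprotein receptors that MYLIP acts on and its partner enzymes, 4 were tested. LRP8, a MYLIP target, read 9.94 and 9.96 in Huh7 controls and 9.022 and 9.001 after knockdown, and fell by 0.94 ± 0.0853 (limma adjusted p = 2.69e-05), with -0.45 on its other probe. VLDLR, the other receptor target, was 0.29 ± 0.073 in SK-Hep1 (limma adjusted p = 0.0232), against -0.011 in Huh7 (0.917). The VLDLR call in SK-Hep1 was lost on leaving out control array 1 (adjusted p = 0.0734), control array 2 (0.102) or knockdown array 12 (0.0644). UBE2D4, of the E2 family that MYLIP uses, rose in Huh7 (0.52 ± 0.0863, adjusted p = 0.0011). USP2, a deubiquitinase of the MYLIP pathway, was at -0.21 ± 0.0724 in Huh7 (adjusted p = 0.0458), a call lost with any 1 Huh7 array left out (adjusted p = 0.0752 to 0.266).

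Of the other ABCA and ABCG transporters 6 of 13 were bright enough to be tested. In SK-Hep1 0 rose and 1 fell (0 and 2 at an unadjusted p of 0.05), and in Huh7 1 rose and 2 fell. Over all genes 8.31% rose and 8.54% fell in SK-Hep1, and 19.4% rose and 19.5% fell in Huh7. ABCA3, the surfactant lipid transporter, fell in SK-Hep1 (-0.37 ± 0.0791, limma adjusted p = 0.0108) and lost the call without control replicate 1 (0.067). ABCA8 fell in Huh7 (-0.41 ± 0.0642, adjusted p = 0.000729). ABCA7 was 0.37 ± 0.0966 in Huh7 (adjusted p = 0.0129), lost without Huh7 control replicate 1, control replicate 2 or knockdown replicate 3 (0.0651 to 0.0814). ABCG4, the closest relative of ABCG1, was at -0.24 ± 0.084 in Huh7 (adjusted p = 0.0439), lost on leaving out any 1 Huh7 array or either SK-Hep1 control array (0.0542 to 0.206).

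Of the other lysophospholipid acyltransferases, 0 of 6 passed limma's threshold in SK-Hep1 (1 higher and 0 lower at an unadjusted p of 0.05), where LPCAT3 was lower. In Huh7 1 rose and 2 fell. The share of all genes that passed was 16.8% in SK-Hep1, and in Huh7 19.4% rose and 19.5% fell. LPCAT4 was at -0.33 ± 0.0912 (adjusted p = 0.0169), MBOAT1 at -0.28 ± 0.0712 (adjusted p = 0.0114) and MBOAT7 at 0.22 ± 0.0782 (adjusted p = 0.0466) in Huh7. Each of these calls was lost with some Huh7 array left out: LPCAT4 without control replicate 1, control replicate 2 or knockdown replicate 3 (adjusted p = 0.0629 to 0.102), MBOAT1 without control replicate 1 or either knockdown array (0.0523 to 0.0936) and MBOAT7 without any 1 of the 4 (0.089 to 0.241).

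Among other lipid-sensing and liver nuclear receptors 3 of 9 rose and 0 fell in SK-Hep1 (5 and 0 at an unadjusted p of 0.05), and 2 rose and 4 fell in Huh7. Over all genes 8.31% rose and 8.54% fell in SK-Hep1, and 19.4% rose and 19.5% fell in Huh7. The number of these 9 that rose in SK-Hep1 was 1 when any 1 array other than knockdown replicate 12 was left out. PPARA, the fatty acid receptor of liver, fell in Huh7 (-0.70 ± 0.0779, limma adjusted p = 0.000104), with -0.48 on its other probe. Its knockdown arrays were under the background limit, and with that limit in their place the control signal was 1.51-fold higher. PPARG, which is known to raise NR1H3 in macrophages, fell in Huh7 (-0.42 ± 0.0959, adjusted p = 0.00667). RARB, a retinoic acid receptor, rose by 0.55 ± 0.0798 in SK-Hep1 and by 0.45 ± 0.0798 in Huh7 (adjusted p = 0.00161 for each), with 0.25 in each on its other probe. RORA, an orphan receptor that binds sterols, rose in Huh7 (0.49 ± 0.0682, adjusted p = 0.00041). Its controls there were under the background limit, and with that limit in their place the rise was 1.35-fold. RORA was 0.23 ± 0.0682 in SK-Hep1 (adjusted p = 0.0426), a call lost with any 1 of the 8 arrays left out (adjusted p = 0.0585 to 0.176).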

How the data were processed

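Total RNA was labelled as biotinylated cRNA from 0.55 µg and read on 8 Illumina arrays, per the labels' protocols. The deposited log2 intensities of 47319 probes were used as the authors gave them. The submitters' processing notes name GenomeStudio 2011.1, and the normalization is not given in the sources used here. All 8 signal columns of a second, unnormalized table match no sample label and were left out, detection p-values included. Probes were named through the supplied platform annotation (30110 probes with 1 symbol, 8 with several, 17201 with none).

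Probes with a mean above 7.003 were kept (21434), and the brightest stood for its gene, giving 12411 genes. Differences were fitted with limma 3.58.1 in R 4.3.3 on 4 group means (4 residual degrees of freedom, two-sided, Benjamini-Hochberg over 12411 genes). The SEs of member probes come from the same fit over all 47319 probes. The fit was tried on simulated data with independent normal noise and changes added only to the Huh7 knockdown arrays. The simulation held neither the levelling between the lines nor arrays of a shared culture, so it cannot check errors from these. Named list genes are up to 4 per list, by size among those past the threshold in a line, and the 5 genes most like ABCG1. The members and lists were chosen with earlier results of these data known. The planned filter, normalization, array weight, trend, single-line, probe-averaging, background and leave-one-out alternatives were run. Alternatives added after seeing the data were the pairwise member differences and list counts with an array left out. The number of arrays limits the precision.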

Additional observations from a re-analysis of the deposited data

Results flagged for a closer look

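ABCA1 (difference in SK-Hep1 less that in Huh7, 1.24), MYLIP (1.32) and NR1H3 (0.71) went opposite ways in the lines. Their knockdown and control arrays did not overlap in either line. The arrays of the ABCG5 and ABCG8 probes, below background throughout, did not overlap in Huh7 either. The share of all genes without overlap is not given here. The differences of ABCA1, MYLIP and NR1H3 were not tested as findings, because these contrasts chose the genes.

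Of the 31 list genes named, 21 differed between the lines by limma's test of the one line's difference less the other's (adjusted p under 0.05 over 12411 genes). The genes named were picked for large differences within a line, so this count is not to be read against the share of all genes. The values, as SK-Hep1 minus Huh7, were above 0 for NPC1 (1.36), APOA2 (0.97), CYP39A1 (0.90), PPARGC1A (0.88), RXRA (0.84), LRP8 (0.83), PPARA (0.79), PLTP (0.69), GRAMD1A (0.59), PPARG (0.46), PCTP (0.45), MBOAT1 (0.44), ABCA8 (0.44), APOM (0.38), VLDLR (0.30) and TMEM135 (0.28). They were below 0 for APOA1 (-0.88), CREBBP (-0.71), SCD (-0.71), ABCA3 (-0.53) and UBE2D4 (-0.49). With each of the 8 arrays left out in turn, 15 of the 21 kept an adjusted p under 0.05 each time. The exceptions were TMEM135 (highest adjusted p = 0.149), VLDLR (0.203), PPARG (0.0917), APOM (0.0788), UBE2D4 (0.0541) and PCTP (0.0528). Groups of 2 arrays were too small to look for single arrays that stand apart.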

How the results depend on the processing

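No paired analysis was possible because knockdown and control arrays of a line share fewer than 2 replicate numbers in the labels. With 1 array left out, the number of genes called ran from 927 to 2443 in SK-Hep1 (main value 2091; 927 without control replicate 1 and 1215 without control replicate 2), from 2877 to 5606 in Huh7 (4833; 2877 to 3133 without any 1 Huh7 array) and from 2530 to 4491 for the difference between the lines (3890; 2530 and 2559 without a Huh7 control array). In SK-Hep1 it was 1198 with array weights and 1086 with the line fitted alone. The other planned fits kept all 3 counts within 1.5 times.

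For the members in SK-Hep1, leaving out 1 array gave 0.86 to 1.16 for ABCA1, 0.33 to 0.74 for MYLIP and -0.0083 to 0.034 for ABCG5. For the ABCG1 probes there it gave -0.20 to 0.080 (ILMN_1794782), -0.25 to 0.059 (ILMN_1658176), -0.051 to 0.052 (ILMN_2329927) and -0.30 to 0.12 (ILMN_1695968). In Huh7 it gave -0.37 to -0.28 for LPCAT3. With the median background probe subtracted and a floor of 16 signal units, the Huh7 differences became -4.17 and -3.24 for ABCG1 (ILMN_1794782 and ILMN_2329927, with both knockdown arrays at the floor), -0.95 for MYLIP and -0.59 for NR1H3, and the SK-Hep1 differences -0.31 for ABCG1 ILMN_1658176 and -0.44 for LPCAT3. This could not be run for probes under background. Without the filter on dim probes RORA in SK-Hep1 and USP2, ABCG4 and MBOAT7 in Huh7 were no longer called (adjusted p = 0.0658 to 0.0811), and after quantile normalization USP2 (0.0513) and MBOAT7 (0.0606) were not.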
